A study of Mus musculus with 2 samples.

Results

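The genes described here are the collagens and laminins of the mouse together with the proteins that link or accompany them in basement membranes. They were chosen by symbol: every row of either count table named Col, number, a, number or Lam, a letter a, b or c, number, plus Nid1, Nid2, Hspg2, Agrn and Sparc. The rule found 59 genes among the 24071 listed in the 2 tables, 58 in the non-traced table and 49 in the DNGR-1-traced table, and only Col6a4 was listed in the traced table alone. The cells came from spinal cords of adult C57BL/6j mice aged 10 to 12 weeks with the genotype Clec9acre/cre R26LSLtdTomato/LSLtdTomato, in which Cre is made from both copies of the Clec9a locus, the gene of the receptor DNGR-1, and a cell with a history of Clec9a expression keeps the red reporter tdTomato. Both groups carried this genotype. After perfusion, dissociation and removal of myelin, live CD45- CD133+ cells were sorted into a CD133+ non-traced library without tdTomato and a CD133+ DNGR-1 traced library with it, and each was sequenced as 1 library, with how many mice were pooled not given in the sources used here.

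Basement membranes are thin sheets of matrix on which endothelial and epithelial cells rest and which also wrap pericytes and vascular smooth muscle. Type IV collagen chains and laminin heterotrimers (1 alpha, 1 beta and 1 gamma chain) each form a network, nidogens bridge them, and the heparan sulphate proteoglycans perlecan (Hspg2) and agrin (Agrn) bind to both sides. In the central nervous system the vessel wall holds an endothelial sheet and a sheet shared with mural cells and astrocyte endfeet, and laminin chains differ between them. Ependymal cells form the ciliated lining of the central canal and, unlike most epithelia, are known to lack a continuous basement membrane.

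The non-traced table held 25411 cells and 233318692 UMIs (unique molecular identifiers, counts of captured transcripts) and the table of traced cells 4825 cells and 46530507 UMIs, with medians of 7218 and 8566 UMIs per cell, and how far depth limits a value is given by its interval. Cells were grouped by clustering without the 59 genes and named from marker lists. In the non-traced library 20380 cells were endothelial-like, 1162 ependymal-like, 179 pericyte-like and 93 smooth muscle-like, the last 2 together called mural-like. The traced library held 4761 ependymal-like and 47 endothelial-like cells and no mural-like cell. At 4825 cells this allows a share of up to 0.0622% for mural-like cells under the endothelial-marker cut given below. That library also held 6 mural and endothelial droplets (0.124%), set aside by the cut, and 6 endothelial and pericyte droplets (0.124%). The limit therefore does not cover mural cells in such droplets. Levels are UMIs of a gene per 1000000 UMIs summed over the cells of a class (CPM), with exact 95% Poisson intervals, and folds carry exact 95% intervals for the ratio of 2 counts. With 1 library in each group no test between animals was possible, no p-value is given, and the intervals cover counting error only. Since reads come from the 3′ end of transcripts, a level is compared between classes for 1 gene and not between genes.

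Droplets carried RNA of other cells to different degrees. Most cells in mural clusters also carried endothelial transcripts, and only the 272 of 1706 that held under 25% of the endothelial-like marker load were kept as mural-like, with 37 cells between 20% and 30%. All 10 endothelial markers were still detected there, with a summed level of 2020 CPM against 22320 CPM in endothelial-like cells (9.05%), and 2454 and 1611 CPM in pericyte-like and smooth muscle-like cells. In ependymal-like cells that sum was 409 CPM in the non-traced library (1.83%) and 25.3 CPM in the traced one (0.113%), where Cdh5 was at 0. The immune list, 8 genes, was at 0 in mural-like cells. The pericyte list summed to 6171 CPM in smooth muscle-like against 35839 CPM in pericyte-like cells. In turn the smooth muscle list summed to 3139 CPM in pericyte-like against 41100 CPM in smooth muscle-like cells. Ependymal markers summed to 800 CPM in pericyte-like and 451 CPM in smooth muscle-like cells, with 1 and 8 of 10 at 10 CPM or more. The part of these transcripts in the values below was not tested. Of the 12 fibroblast markers 6 were at 0 in pericyte-like cells, including Pdgfra but not Dcn and Lum, and 4 reached 10 CPM. In smooth muscle-like cells 7 were at 0, including Dcn and Lum but not Pi16, and 3 reached 10 CPM. The sums of the list, 480 and 349 CPM in that order, compare with 106824 CPM in the 34 fibroblast-like cells. The pericyte-like cells came from 3 sub-clusters, of which 1 with 112 cells was led by haemoglobin genes (Hbb-bs at 14038 CPM over all pericyte-like cells, with 5396 of its 10490 UMIs in 1 cell) and 1 with 34 cells by genes that included Acta2 and Tpm2 of smooth muscle. The libraries shared 42 cell barcodes, of which 1 had the same class in both and 39 lay in an endothelial-containing class in the non-traced library.

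**Figure D1:**
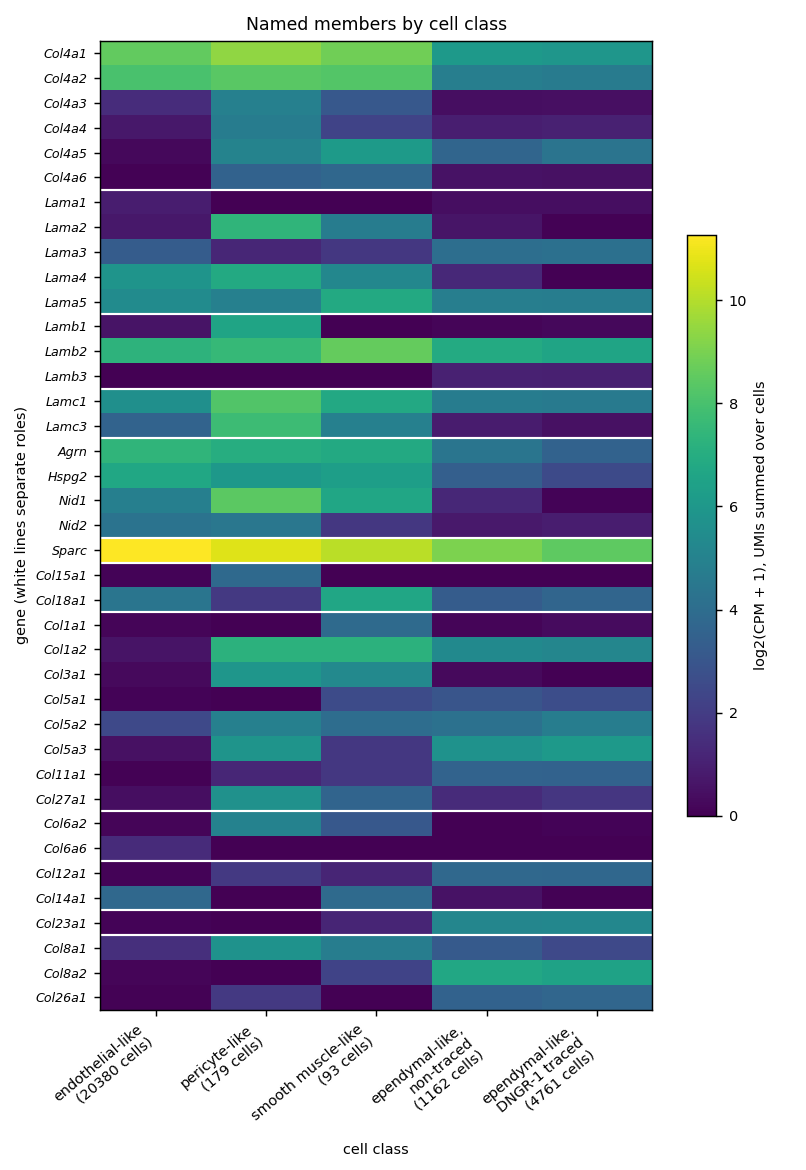
Levels of 39 named genes in 5 classes, as log2(CPM + 1) of UMIs summed over the cells of a class, with the genes ordered by role and each column 1 class of 1 library. Lama2, Lamb1, Col3a1 and Col27a1 are bright in pericyte-like cells and dark in endothelial-like cells. Col8a2, Col5a3 and Col23a1 are bright in both ependymal-like columns, and Col5a3 also in the pericyte-like one.

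Mural-like cells held higher levels of many of these genes than endothelial-like cells. The comparison asked which chains each side of the vessel wall transcribes. Of 27 members at 10 CPM or more in either class, 17 were at least 2-fold higher in mural-like cells and 0 at least 2-fold lower, on the scale of log2(CPM + 1). Across all genes at that level 15.7% were at least 2-fold higher and 15% lower. The median difference over the 27 members was 2.83 on the log2 scale and -0.01 over all 9523 genes compared. Against the same endothelial-like cells, pericyte-like cells had 18 of 28 members higher and 2 lower (Col14a1 and Col18a1), beside 15.6% and 16% of all genes, and smooth muscle-like cells 15 of 23 higher and 2 lower (Nid2 and Sparc), beside 16.4% and 17.7%. These 3 comparisons share their endothelial-like cells, and mural-like cells are the sum of the other 2 classes. In the 29 mural-like cells with no UMI of an endothelial marker, 14 of 24 members were higher and 2 lower, and the log2 difference of Col18a1 was 0.27, against 1.37 in all mural-like cells. No share of all genes is given for these 29 cells, so this count cannot be set beside one.

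Col4a1 and Col4a2 encode the alpha 1 and alpha 2 chains that make up the type IV network of nearly every basement membrane. Col4a1 stood at 375 CPM (interval 372 to 378) in endothelial-like, 668 CPM (interval 610.5 to 729) in pericyte-like and 449.8 CPM (interval 404 to 499) in smooth muscle-like cells. Col4a2 stood at 257, 336 CPM (interval 296 to 380.1) and 302 CPM (interval 265 to 343) in the same order. Both chains were therefore high in all 3 classes, and neither passed 2-fold. The genes lie head to head on chromosome 8 (GRCm38, GENCODE vM21): Col4a1 (ENSMUSG00000031502.11) runs from 11312826 down to 11198423 on the minus strand and Col4a2 (ENSMUSG00000031503.13) from 11312805 up to 11449287 on the plus strand, so that their annotated starts overlap by 22 bases. For each Col4a1 UMI there were 0.686 Col4a2 UMIs (interval 0.678 to 0.695) in endothelial-like, 0.503 (0.430 to 0.587) in pericyte-like and 0.672 (0.568 to 0.794) in smooth muscle-like cells.

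The 4 minor type IV chains showed a different distribution. Col4a3 and Col4a4, the alpha 3 and alpha 4 chains best known from the kidney glomerulus, were at 29.4 CPM (interval 18.5 to 44.6) and 25.4 CPM (interval 15.3 to 39.7) in pericyte-like cells and at 1.7 and 0.636 CPM in endothelial-like cells, which is 17.3-fold (interval 10.7 to 26.7) and 39.98-fold (interval 23.2 to 65.4) higher. In smooth muscle-like cells they were at 7.56 and 3.78 CPM, from 6 and 3 UMIs. Col4a5, the alpha 5 chain, was higher in smooth muscle-like cells, at 70.6 CPM (interval 53.3 to 91.6) there, 32.1 CPM (interval 20.6 to 47.8) in pericyte-like and 0.18 CPM in endothelial-like cells. Col4a6, the alpha 6 chain, was at 12.6 CPM (interval 6.04 to 23.2), 10.7 CPM (interval 4.62 to 21.1) and 0.045 CPM, and its ratio of smooth muscle-like to pericyte-like cells was 1.18 (interval 0.418 to 3.43), an interval that holds 1. The UMIs were spread over cells, with 56 Col4a5 UMIs in 40 of the 93 smooth muscle-like cells and 22 Col4a3 UMIs in 22 of the 179 pericyte-like cells. These genes form 2 more head-to-head pairs, with 71 bases between the annotated starts of Col4a3 and Col4a4 on chromosome 1 and 1308 bases between those of Col4a5 and Col4a6 on chromosome X.

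Laminin alpha chains, which carry the binding sites for integrins and dystroglycan, differed between the classes. Lama2, the alpha 2 chain of muscle and glial basement membranes, was at 167 CPM (interval 139 to 199) in pericyte-like, 25.2 CPM (interval 15.4 to 38.9) in smooth muscle-like and 0.636 CPM (interval 0.524 to 0.765) in endothelial-like cells, a difference of 263-fold (interval 202 to 342) between pericyte-like and endothelial-like cells. After thinning of each cell to 1000 UMIs, 11.7% of pericyte-like cells (exact interval 7.41% to 17.4%) and 0.054% of endothelial-like cells held a Lama2 UMI, and without thinning 43.02% and 0.52%, at median depths of 3917 and 6868 UMIs. Lama4 and Lama5, the alpha 4 and alpha 5 chains of endothelial basement membranes, were found in all 3 classes. Lama4 was at 115 CPM (interval 92.1 to 142) in pericyte-like, 56.5 CPM in endothelial-like and 36.5 CPM in smooth muscle-like cells. Lama5 was at 113 CPM (interval 91.2 to 139) in smooth muscle-like, 42.6 CPM in endothelial-like and 29.4 CPM in pericyte-like cells. Pericyte-like cells thus had the highest Lama4 and smooth muscle-like cells the highest Lama5 of the 3, with intervals that did not overlap. The sub-clusters of pericyte-like cells differed in Lama2, which was at 201 CPM in the 112 cells led by haemoglobin genes, 161 CPM in 33 others and 69.2 CPM in the 34 led by smooth muscle genes. Lama1 was at 0 in mural-like cells, and Lama3 was at 1.95 CPM there against 8.67 CPM in endothelial-like cells.

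Among beta and gamma chains, Lamb1 (beta 1) was at 95.01 CPM (interval 74.2 to 119.8) in pericyte-like and 0.495 CPM in endothelial-like cells (192-fold, interval 138 to 265), and was not detected in smooth muscle-like cells, where 3 counts would be 3.78 CPM. Lamb2 (beta 2) was at 387 CPM (interval 345 to 433) in smooth muscle-like, 189 CPM (interval 159 to 223) in pericyte-like and 154 CPM in endothelial-like cells. Smooth muscle-like cells therefore held Lamb2 without detectable Lamb1, and pericyte-like cells held both. Lamc1, the gamma 1 chain of most laminins, was at 299.8, 112 and 48.5 CPM in pericyte-like, smooth muscle-like and endothelial-like cells, 6.17-fold (interval 5.38 to 7.05) and 2.31-fold (interval 1.85 to 2.85) higher than in the last. Lamc3, the gamma 3 chain, was at 211, 28.98 and 11.1 CPM in the same order, 18.98-fold (interval 16.03 to 22.3) higher in pericyte-like than in endothelial-like cells. Lamb3, the beta 3 chain of epithelial laminin, had no UMI in either mural class and was at 0.0113 CPM in endothelial-like cells.

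**Figure D2:**
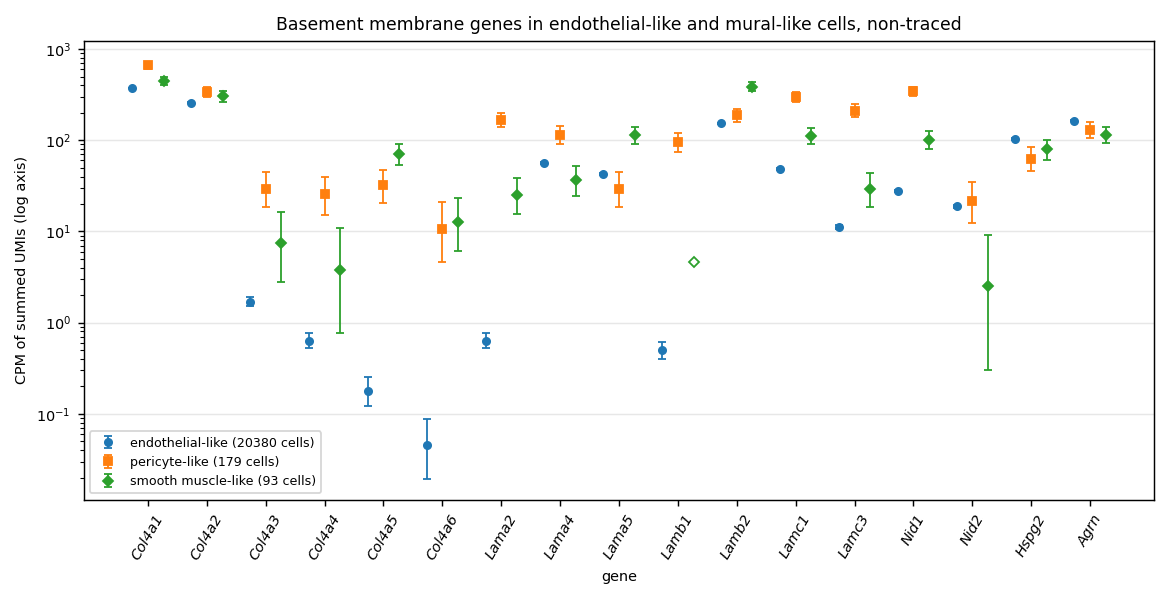
Levels of type IV collagen, laminin, nidogen and proteoglycan genes in 3 classes of the non-traced library, in CPM on a log axis. Points are summed UMIs, bars are exact 95% Poisson intervals, and the hollow point marks the upper bound for Lamb1, which had no UMI in smooth muscle-like cells. Lama2, Lamb1, Lamc3, Nid1 and Col4a3 to Col4a6 are separated by an order of magnitude or more between pericyte-like and endothelial-like cells, while Col4a1, Col4a2, Agrn and Hspg2 lie close together.

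Nid1 and Nid2 encode the nidogens, which bridge laminin and type IV collagen. Nid1 was at 344 CPM (interval 303 to 389) in pericyte-like, 101 CPM (interval 79.9 to 125) in smooth muscle-like and 27.8 CPM (interval 27.1 to 28.6) in endothelial-like cells, 12.4-fold (interval 10.9 to 14.01) and 3.62-fold (interval 2.87 to 4.51) higher than in the last. In the 3 pericyte-like sub-clusters Nid1 was at 375, 329 and 263 CPM in the order given for Lama2. After thinning, 23.5% of pericyte-like (interval 17.5% to 30.4%) and 2.68% of endothelial-like cells held a Nid1 UMI. Nid2 did not follow it, at 21.4 CPM (interval 12.2 to 34.8), 2.52 CPM (interval 0.305 to 9.1) and 18.8 CPM. Hspg2 (perlecan) was at 62.9, 79.4 and 103 CPM and Agrn (agrin) at 129.8, 115 and 165 CPM in pericyte-like, smooth muscle-like and endothelial-like cells, all within 2-fold. Sparc encodes a secreted collagen-binding glycoprotein, and its level was 2471 CPM in endothelial-like, 1673 CPM in pericyte-like and 1109 CPM in smooth muscle-like cells, 2.23-fold (interval 2.09 to 2.38) lower in the last. In the 1428 droplets set aside as mural and endothelial, these genes lay between the 2 classes, with Nid1 at 161 CPM, Lama2 at 67.96 CPM and Sparc at 2273 CPM.

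The upstream regions of Lama2 and Nid1, which were both high in pericyte-like cells, are given from RefSeq (GRCm38.p6) as the 250 bases before the RefSeq transcription start, 5′ to 3′ on the strand of the gene. Capitals mark matches, on either strand, to the GC box GGGCGG and the CCAAT box CCAAT. The TATA box TATAAA and the half-site GTTGCC were searched too, also on both strands, and no motif is contained in another. Of 32851 such windows in the mouse table, 32.7% held GGGCGG, 33.8% CCAAT, 12.4% TATAAA and 10.4% GTTGCC, and of the 48 windows of 43 members 28, 15, 4 and 4 did. The Nid1 window lies at chr13:13437352-13437601 on the plus strand and holds 1 GC box and 1 CCAAT box. The Lama2 window lies at chr10:27616943-27617192 on the minus strand, inside the longer GENCODE gene, and holds none of the 4 motifs. Its GC content is 47.2%, and that of the Nid1 window 64.4%.
Nid1: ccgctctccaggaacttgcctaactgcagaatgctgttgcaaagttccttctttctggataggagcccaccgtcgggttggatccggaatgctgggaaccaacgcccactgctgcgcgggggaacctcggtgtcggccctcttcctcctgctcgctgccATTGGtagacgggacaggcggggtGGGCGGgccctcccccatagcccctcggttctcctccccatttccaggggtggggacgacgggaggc
Lama2: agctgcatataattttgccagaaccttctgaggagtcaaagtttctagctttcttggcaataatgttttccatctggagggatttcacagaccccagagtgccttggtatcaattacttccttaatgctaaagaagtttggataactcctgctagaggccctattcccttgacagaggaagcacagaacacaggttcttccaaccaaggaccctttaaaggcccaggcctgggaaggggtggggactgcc

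Other collagens were also found on the mural side. Col1a2, the alpha 2 chain of type I collagen, was at 149.9 CPM (interval 123 to 180.3) in pericyte-like and 149.9 CPM (interval 124 to 179) in smooth muscle-like cells and at 0.512 CPM in endothelial-like cells. Its partner chain Col1a1 was at 0 in pericyte-like cells (3 counts would be 4.01 CPM) and had 11 UMIs in smooth muscle-like cells, of which 8 lay in 1 cell. In the 34 fibroblast-like cells both chains were high, Col1a1 at 1814 CPM (interval 1685 to 1950.0) and Col1a2 at 1987 CPM (interval 1852 to 2129.6). Col3a1, the type III collagen chain, was at 60.2 CPM (interval 43.9 to 80.6) in pericyte-like cells, where 33 cells held its 45 UMIs, and at 39.1 CPM in smooth muscle-like cells, where 1 cell held 15 of 31. A small sub-cluster of 14 smooth muscle-like cells was led by S100a6 and by Pi16, which is on the fibroblast list. Without it, the remaining 79 had 1 Col1a1 UMI and 4.95 CPM (interval 1.02 to 14.5) of Col3a1. Col5a3 and Col27a1, fibrillar chains of types V and XXVII, were at 56.2 CPM (interval 40.5 to 75.97) and 50.9 CPM (interval 35.99 to 69.8) in pericyte-like cells and at 0.4 and 0.326 CPM in endothelial-like cells. Col6a2 of the type VI microfibrils was at 30.8 CPM (interval 19.5 to 46.2) in pericyte-like cells, while Col6a1 and Col6a3, its partner chains, had no UMI there. Col8a1, a short-chain network collagen of vessels, was at 52.2 CPM (interval 37.1 to 71.3), 26.5 CPM (interval 16.4 to 40.4) and 1.89 CPM in pericyte-like, smooth muscle-like and endothelial-like cells. The multiplexins, basement membrane collagens from whose ends endostatin and its relative are released, differed from each other: Col15a1 was at 13.4 CPM (interval 6.42 to 24.6) in pericyte-like cells and at 0 in smooth muscle-like cells, and Col18a1 at 2.68 CPM (interval 0.324 to 9.67) and 101 CPM (interval 79.9 to 125).

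Smooth muscle-like and pericyte-like cells were also compared directly. Of 29 members compared, 6 were at least 2-fold higher in smooth muscle-like cells (Col1a1, Col4a5, Col14a1, Col18a1, Lama5 and Lamb2) and 13 lower (Col4a3, Col4a4, Col5a3, Col6a2, Col15a1, Col27a1, Lama2, Lama4, Lamb1, Lamc1, Lamc3, Nid1 and Nid2), against 10.7% and 12.1% of all genes compared. In the 79 smooth muscle-like cells outside the small sub-cluster, Col14a1 was at 8.25 CPM (interval 2.68 to 19.3), Col18a1 at 75.9 CPM (interval 55.6 to 101) and Lama5 at 132 CPM (interval 105 to 164). For Col1a1, 8 of 11 UMIs lay in the single cell above, and the direction turned when cells were clustered after integration. Col18a1 was 37.7-fold (interval 10.1 to 316) higher, Lama5 3.85-fold (interval 2.4 to 6.45) and Lamb2 2.05-fold (interval 1.67 to 2.52). On the pericyte side Lamb1, with no UMI in smooth muscle-like cells, was higher by at least 19.9-fold, the lower limit of its exact 95% interval. Taking 3 counts for the smooth muscle-like cells, its ratio was 25.1. Lamc3 was 7.3-fold (interval 4.69 to 11.8), Lama2 6.64-fold (interval 4.12 to 11.2) and Nid1 3.41-fold (interval 2.65 to 4.44) higher. The gamma chains Lamc1 and Lamc3 were both lower in smooth muscle-like cells, and alpha and beta chains stood on both sides.

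Of 64 other genes of the same pathway fixed as a list, 49 were compared between mural-like and endothelial-like cells, 22 were at least 2-fold higher and 8 lower, against 15.7% and 15% of all genes, the shares beside which the counts of each group below stand. Among 12 receptors compared 7 were higher and 2 lower. Itga7, the laminin-binding integrin alpha 7 chain, had the largest difference of the listed genes on the log2(CPM + 1) scale, at 126 CPM against 0.281 CPM (447-fold, interval 326 to 623), and Itga6, another laminin-binding chain, was on the other side at 30.5 against 363 CPM. Of 18 genes of collagen synthesis and crosslinking 7 were higher and 1 lower, among them Pcolce, which enhances removal of the procollagen C-terminal end (102 against 0.394 CPM), and the prolyl 3-hydroxylase P3h3 (40.2 against 0.585 CPM). Of 10 proteases and inhibitors 5 were higher and 1 lower. Of 9 other matrix proteins 3 were higher and 4 lower, and Hmcn1 (hemicentin 1, 12.98 against 401 CPM), Vwa1 (62.3 against 1042 CPM) and Egfl7 (187 against 1912 CPM) stood on the endothelial side.

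Endothelial segments were compared next. From marker lists, 4347 endothelial-like cells were arterial-like, 3922 capillary-like, 1549 venous-like and 1498 interferon-responding, and 9064 stayed unnamed. The main network genes differed little along the vessel. Col4a1 was at 414, 329.9, 343 and 397 CPM in arterial-like, capillary-like, venous-like and interferon-responding cells, and Lama4 at 44.8, 60.5, 64.7 and 63.6 CPM. Agrn ranged from 147 to 176 CPM and Hspg2 from 73.9 to 119 CPM over the 4 groups.

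Arterial-like cells differed from capillary-like cells in a small set of other members. Of 16 compared, 5 were at least 2-fold higher and 0 lower, against 4.11% and 1.98% of all genes. Col18a1 was at 78.1 CPM (interval 75.4 to 80.9) in arterial-like and 0.759 CPM (interval 0.476 to 1.15) in capillary-like cells (103-fold, interval 67.8 to 164). Col14a1, a fibril-associated collagen, was at 36.7 and 1.24 CPM (29.6-fold, interval 21.3 to 42.4), and Col5a2, a type V chain, at 13.3 and 1.14 CPM (11.7-fold, interval 8.25 to 17.2). These 3 collagens were at 1.24 CPM or less in capillary-like cells. Of the laminins, Lama3, the alpha 3 chain, was at 19.6 and 4.8 CPM (4.08-fold, interval 3.4 to 4.92) and Lamc3 at 22.3 and 6.45 CPM (3.45-fold, interval 2.94 to 4.06), while Lama5 was 1.74-fold (interval 1.62 to 1.87) higher. Col8a1 was at 6.9 against 0.172 CPM, under the minimum of 10 CPM.

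These values varied within the arterial-like cells, which came from 4 sub-clusters. In a sub-cluster of 234 cells led by Pi16 and S100a4, Col18a1 was at 289.8 CPM (interval 268 to 313), Col14a1 at 80.9 CPM (interval 69.4 to 93.7), Col8a1 at 64.97 CPM (interval 54.8 to 76.5) and Lama5 at 114 CPM. In another of 287 cells led by Cytl1, Fbln5 and Mgp, Col18a1 was at 181 CPM (interval 166 to 197), Col5a2 at 79.6 CPM (interval 69.6 to 90.6) and Lama3 at 43.8 CPM (interval 36.5 to 52.1). In the largest, 2440 cells led by Gkn3 and Igfbp3, the values were 60.7 CPM for Col18a1, 7.47 CPM for Col5a2 and 21.4 CPM for Lama3. Sparc had its lowest level of 12 endothelial sub-clusters, 1084 CPM, in the first of these, against a median of 2381 CPM. Smooth muscle markers stood at a sum of 126 CPM in arterial-like and 30.4 CPM in capillary-like cells, with Cnn1 at 0 in the former, and their part in these differences was not tested.

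Venous-like and interferon-responding cells were closer to capillary-like cells than arterial-like cells were, over all genes as well as over these members. Of 12 members compared for venous-like cells, 1 was at least 2-fold higher (Col6a6) and 0 lower, against 1.49% and 0.216% of all genes, and of 11 for interferon-responding cells 0 passed in either direction, against 0.496% and 0.145%. Col6a6, a type VI alpha chain, was at 11.7 CPM (interval 10.3 to 13.3) in venous-like, 0.828 CPM in capillary-like and 0.326 CPM in arterial-like cells (14.2-fold, interval 9.3 to 22.6 for the first pair). This call was lost under 3 other ways of clustering, in which the venous-like group was larger. Lama1, the alpha 1 chain of embryonic and meningeal basement membranes, was at 4.76 CPM (interval 3.85 to 5.81) in venous-like and 0.207 CPM in capillary-like cells (22.98-fold, interval 10.2 to 64.2), below the 10 CPM minimum. Col5a2 was at 7.14 CPM and Nid1 at 23.5 CPM in venous-like cells, and Nid1 was at 18.9 CPM in arterial-like, 34.6 CPM in capillary-like and 42.5 CPM in interferon-responding cells. The markers of pericytes, which have high Nid1, summed to 394, 407, 302 and 456 CPM in arterial-like, capillary-like, venous-like and interferon-responding cells, and their part in the Nid1 values was not tested.

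**Figure D3:**
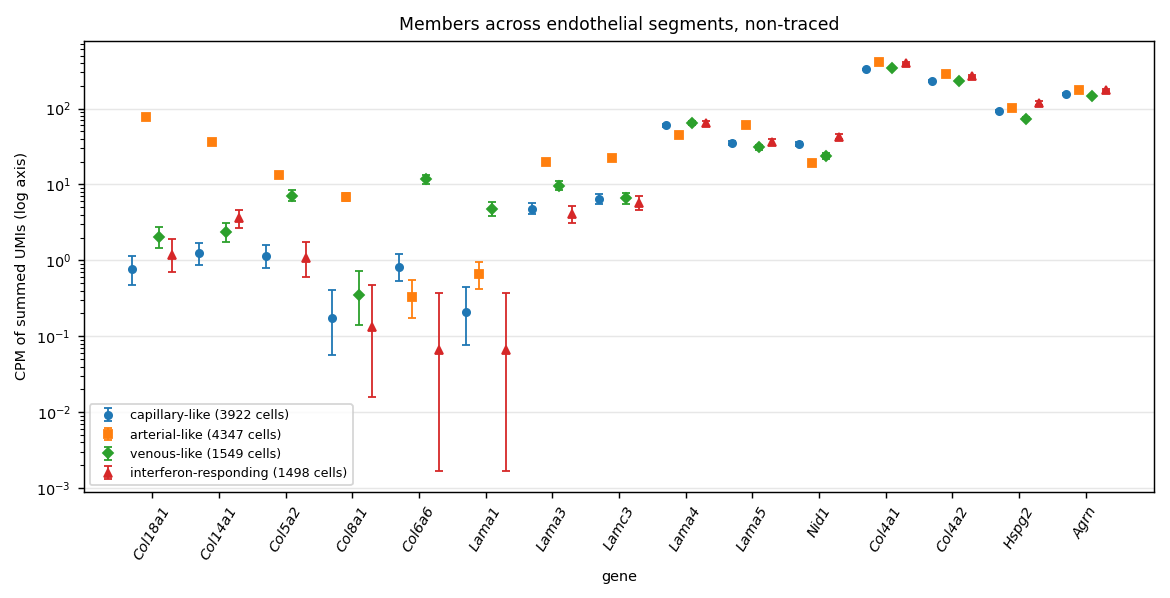
Levels of 15 genes in 4 groups of endothelial-like cells of the non-traced library, in CPM on a log axis with exact 95% Poisson intervals. Col18a1, Col14a1, Col5a2 and Col8a1 are highest in arterial-like cells, Col6a6 and Lama1 are highest in venous-like cells, and the values of Col4a1, Col4a2, Hspg2 and Agrn lie within 2-fold.

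Ependymal-like cells held a different set from endothelial-like cells. Of 24 members compared with endothelial-like cells of the same library, 9 were at least 2-fold higher and 11 lower, against 27.2% and 19.4% of all genes. The core vascular set was lower: Col4a1 was at 66.6 CPM (interval 61.3 to 72.2) against 375 CPM (5.63-fold, interval 5.19 to 6.12), Col4a2 at 27.02 against 257 CPM (9.53-fold, interval 8.38 to 10.9), Hspg2 at 9.66 against 103 CPM, Agrn at 19.8 against 165 CPM and Sparc at 521 against 2471 CPM. Some of these remained well above 0 in the traced library, where endothelial markers were at 0.113% of their endothelial-like level, with Col4a1 at 59.7 CPM (interval 57.5 to 61.95), Col4a2 at 24.99 CPM (interval 23.6 to 26.5), Agrn at 10.8 CPM (interval 9.84 to 11.8), Hspg2 at 4.78 CPM (interval 4.16 to 5.45) and Sparc at 360.0 CPM (interval 355 to 366). The ratio of Col4a2 to Col4a1 UMIs was 0.406 (interval 0.347 to 0.473) in the non-traced and 0.419 (0.391 to 0.449) in the traced ependymal-like cells, below the 0.686 of endothelial-like cells.

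Of the laminin chains of the vessel wall, Lama4, Lama2, Lamb1 and Lamc3 were near absent from ependymal-like cells, and Lamb2, Lamc1 and Lama5 were not. Lama4 was at 1.49 CPM in the non-traced library, 2.64% of its endothelial-like level beside 1.83% for the endothelial markers, and had no UMI in 4761 traced cells, where 3 counts would be 0.0654 CPM. Lama2 was at 0.575 and 0.0436 CPM in non-traced and traced ependymal-like cells, and the nidogen gene Nid1 at 1.38 and 0.0872 CPM. In the ependymal subtypes compared below, Lamb1 was at 0.32 CPM or less and Lamc3 at 1.14 CPM or less. The chains that were detected at higher levels included Lamb2, which was at 119 CPM (interval 112 to 127) and 95.2 CPM (interval 92.4 to 98.1), Lamc1 at 25.6 CPM (interval 22.4 to 29.2) and 24.3 CPM (interval 22.9 to 25.8) and Lama5 at 27.4 CPM (interval 24 to 31.1) and 26.6 CPM (interval 25.1 to 28.1). Lama3 was at 15.8 CPM (interval 13.2 to 18.6) in non-traced and 17.01 CPM (interval 15.8 to 18.2) in traced ependymal-like cells, against 8.67 CPM in endothelial-like and 1.95 CPM in mural-like cells. The arterial-like level of Lama3, given above, was higher than either ependymal-like level. Lamb3 was at 1.03 and 1 CPM in non-traced and traced ependymal-like cells. Chains alpha 3 and alpha 5, beta 2 and gamma 1 were therefore the laminins at 10 CPM or more in ependymal-like cells.

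Of the 9 members that were higher in ependymal-like than in endothelial-like cells, Col4a5 is a type IV chain and the others are collagens of other families. Col8a2, the alpha 2 chain of the short-chain type VIII network that is best known from the corneal Descemet membrane, was at 108 CPM (interval 101 to 115) in non-traced and 88.2 CPM (interval 85.5 to 91) in traced ependymal-like cells and at 0.107 CPM in endothelial-like cells (1006-fold, interval 640.3 to 1678). After thinning, 10.9% of non-traced (interval 9.19% to 12.9%) and 8.84% of traced ependymal-like cells (8.05% to 9.69%) held a Col8a2 UMI, against 0.0294% of endothelial-like cells, and without thinning 51.6%, 53.98% and 0.0932%. Its partner chain Col8a1 was at 8.28 and 4.69 CPM. Col8a2 (ENSMUSG00000056174.8) lies on chromosome 4 from 126286793 to 126314330 on the plus strand. Its 250 upstream bases (RefSeq, chr4:126286544-126286793) are shown because this gene separates the ependymal-like cells from the vessel classes. They have 70% GC and hold 4 GC boxes, in capitals, and none of the other 3 motifs.
Col8a2: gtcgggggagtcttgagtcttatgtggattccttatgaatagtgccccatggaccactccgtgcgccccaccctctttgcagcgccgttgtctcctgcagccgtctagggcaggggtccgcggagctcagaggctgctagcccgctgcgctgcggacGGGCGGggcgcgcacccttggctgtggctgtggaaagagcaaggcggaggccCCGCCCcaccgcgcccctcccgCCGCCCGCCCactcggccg

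Col5a3, a type V chain, was at 52.1 CPM (interval 47.4 to 57.1) in non-traced and 67.8 CPM (interval 65.4 to 70.2) in traced ependymal-like cells against 0.4 CPM in endothelial-like cells. Col1a2 was at 39.4 CPM (interval 35.4 to 43.8) and 34.8 CPM (interval 33.1 to 36.6), again without its partner Col1a1, which was at 0.115 and 0.262 CPM. Col23a1, a transmembrane collagen, was at 34.6 CPM (interval 30.8 to 38.8) and 35.7 CPM (interval 33.97 to 37.5) against 0.0957 CPM in endothelial-like cells. Col5a2 was at 17.2 and 26.5 CPM, Col4a5 at 11.8 and 19.4 CPM, Col12a1, a fibril-associated collagen, at 13.2 and 12.7 CPM, Col11a1, a fibrillar chain of cartilage, at 11.04 and 10.8 CPM, and Col26a1 at 10.8 and 12.2 CPM. Some of these genes were also found in mural classes. Pericyte-like and smooth muscle-like cells had Col5a3 at 56.2 and 2.52 CPM, Col5a2 at 29.4 and 15.1 CPM and Col4a5 at 32.1 and 70.6 CPM. Col1a2 was at 149.9 CPM in both. The rest of the 9 were at 3.78 CPM or less in both mural classes. Col5a1, the common chain of type V collagen, was at 6.9 and 5.41 CPM against 0.0732 CPM in endothelial-like cells. The partner of Col4a5 in the minor network, Col4a6, was at 0.46 and 0.414 CPM, and Col3a1 at 0.23 and 0 CPM. The fibroblast list summed to 13.5 and 3.49 CPM in these cells, with Lum and Pdgfra at 0 in both libraries.

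Of the 64 pathway genes, 41 were compared between ependymal-like and endothelial-like cells, 12 were at least 2-fold higher and 19 lower, against 27.2% and 19.4% of all genes, so that the share that was higher lay near that of all genes. On the log2(CPM + 1) scale Ddr1, a collagen receptor tyrosine kinase, had the largest difference upward, at 357 CPM against 1.96 CPM (182-fold, interval 163 to 204). The metalloproteinase inhibitors Timp4 (112 against 0.737 CPM) and Timp2 (458 against 20.7 CPM) and the prolyl 4-hydroxylase subunit P4ha3 (14.1 against 0.045 CPM) followed on that scale, although the ratio of CPM was larger for P4ha3 (314-fold, interval 155 to 744). On the other side stood Tinagl1 (8.85 against 515 CPM), Vwa1 (23 against 1042 CPM), Egfl7 (49.3 against 1912 CPM) and the collagen-binding integrin chain Itga1 (2.41 against 141 CPM). Beside the same shares of all genes, 4 of 11 receptors were higher and 6 lower, and of 9 other basement membrane proteins 1 was higher and 6 lower.

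Traced and non-traced ependymal-like cells were compared with each other, since the study set the DNGR-1-traced cells against the other CD133+ cells. Of 18 members compared, 0 passed 2-fold in either direction, against 0.678% of all genes higher and 1.43% lower in traced cells. The differences within that limit were still larger than counting error for some. The ratio of the traced to the non-traced level was 0.691 (interval 0.668 to 0.714) for Sparc, 0.545 (interval 0.457 to 0.652) for Agrn, 0.798 (interval 0.746 to 0.855) for Lamb2 and 0.821 (interval 0.764 to 0.882) for Col8a2, all below 1. It was 1.64 (interval 1.34 to 2.03) for Col4a5, 1.53 (interval 1.29 to 1.83) for Col5a2, 1.3 (interval 1.18 to 1.44) for Col5a3 and 1.38 (interval 1.08 to 1.78) for Col18a1, above 1. For Col4a2 (0.925, interval 0.803 to 1.07), Col23a1 (1.03, interval 0.911 to 1.17), Lama3 (1.08, interval 0.899 to 1.3), Lama5 (0.972, interval 0.845 to 1.12) and Lamc1 (0.948, interval 0.821 to 1.1) the interval held 1. Library, sort gate and tracing cannot be told apart here, and the makeup by subtype differed: ventral midline cells made up 362 of 1162 non-traced and 207 of 4761 traced ependymal-like cells and Anxa8-high cells 98 and 876. At a raised clustering resolution 2 members passed, both lower in traced cells, with no share of all genes given for that clustering. With cells limited to at most 1 UMI of the endothelial genes Cldn5, Flt1, Pecam1 and Ly6c1 together, 0 members passed again. Within the ventral midline cells 1 of 18 members passed 2-fold upward in the traced library and 1 downward, beside 1.36% and 1.23% of all genes: Col12a1 at 34.3 against 15.6 CPM and Hspg2 at 5.32 against 12.2 CPM. Within the Anxa8-high cells 2 of 18 were higher and 1 lower, beside 2.15% and 1.56%: Col4a5 at 16.7 against 6.86 CPM, Col5a2 at 28.5 against 13.7 CPM and Col11a1 at 5.77 against 12.6 CPM.

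**Figure D4:**
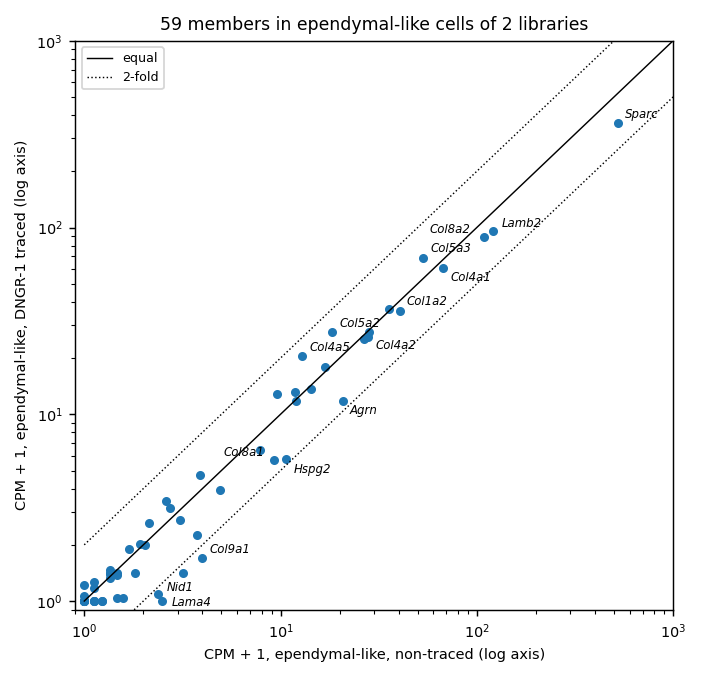
CPM + 1 of the 59 genes in ependymal-like cells of the non-traced library (horizontal, log axis) and of the traced library (vertical, log axis), 1 point per gene. Genes at 10 CPM or more in either library lie between the dotted 2-fold lines, and Lama4 and Nid1, at 1.49 and 1.38 CPM in the non-traced library, lie below them at the lower left.

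Subtypes of ependymal-like cells were compared with the other ependymal-like cells of the same library. Ventral midline cells, named from markers of the canal floor, had less of 2 fibrillar chains in the non-traced library: Col1a2 was at 15.6 CPM (interval 11.2 to 21.2) against 49.8 CPM and Col11a1 at 4.95 CPM (interval 2.63 to 8.46) against 13.7 CPM. That is 2 of 20 members lower and 0 higher, against 2.62% and 2.37% of all genes. The count was 4 at a raised clustering resolution (0 higher, 4 lower) and also 4 with a pseudocount of 0.1 CPM or without cells over 10% mitochondrial UMIs (1 higher, 3 lower each), with both of these chains among them. No share of all genes is given for these settings, here or in the traced library. In the traced library Col11a1 was again lower, at 4.35 CPM (interval 1.99 to 8.26) against 11.1 CPM, as was Col18a1 at 2.9 CPM (interval 1.06 to 6.31) against 12.3 CPM, and Col12a1 was higher, at 34.3 CPM (interval 26.8 to 43.3) against 11.7 CPM, so that 1 of 19 members was higher and 2 lower, against 3.03% and 2.36%, and 5 passed (2 higher, 3 lower) with that pseudocount. Col1a2 stood at 22.2 CPM (interval 16.3 to 29.7) against 35.4 CPM there, lower but within 2-fold, and Col12a1 at 15.6 CPM (interval 11.2 to 21.2) against 12.2 CPM in the non-traced library. A pair of weak members lay under 10 CPM: Col9a1 was at 7.61 against 0.989 CPM in non-traced and 4.83 against 0.502 CPM in traced cells, and Col22a1 at 6.47 against 0.33 CPM and 1.45 against 0.365 CPM. The pericyte list summed to 216 and 140 CPM in ventral midline cells, of which Vtn made up 158 and 121 CPM, with Kcnj8, Abcc9, Rgs5, Higd1b and Notch3 at 0 in the traced ones.

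Anxa8-high cells had few members past 2-fold. In the non-traced library 1 of 18 members was at least 2-fold higher, Col26a1 at 21.7 CPM (interval 13.1 to 33.9) against 9.59 CPM, and 0 lower, against 1.97% and 2.86% of all genes. In the traced library 0 of 18 passed in either direction, against 0.901% and 0.466%, and Col26a1 was at 13.9 against 11.8 CPM. Sparc was nevertheless higher in Anxa8-high cells of both libraries, at 756 CPM (interval 699.7 to 816) against 495 CPM in non-traced and 586 CPM (interval 571 to 602) against 302 CPM in traced cells. Col8a1 was at 1.71 CPM (interval 0.977 to 2.78) against 5.45 CPM in traced Anxa8-high cells, under 10 CPM in both. Col11a1, low in ventral midline cells, was also lower in traced Anxa8-high cells, at 5.77 against 12.1 CPM (ratio 0.475, interval 0.351 to 0.631). In the non-traced library it was at 12.6 against 10.9 CPM. Cycling cells, 159 in the traced library, had Col8a1 at 15.3 CPM (interval 9.72 to 23.01) against 4.33 CPM and lower Col4a5 (8 against 19.8 CPM) and Col26a1 (4.67 against 12.5 CPM), 1 of 19 higher and 2 lower, against 5.97% and 0.668%. The Col8a1 value came from 23 UMIs in 15 cells, and cycling cells of the non-traced library, 24 in all, were too few to compare.

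**Figure D5:**
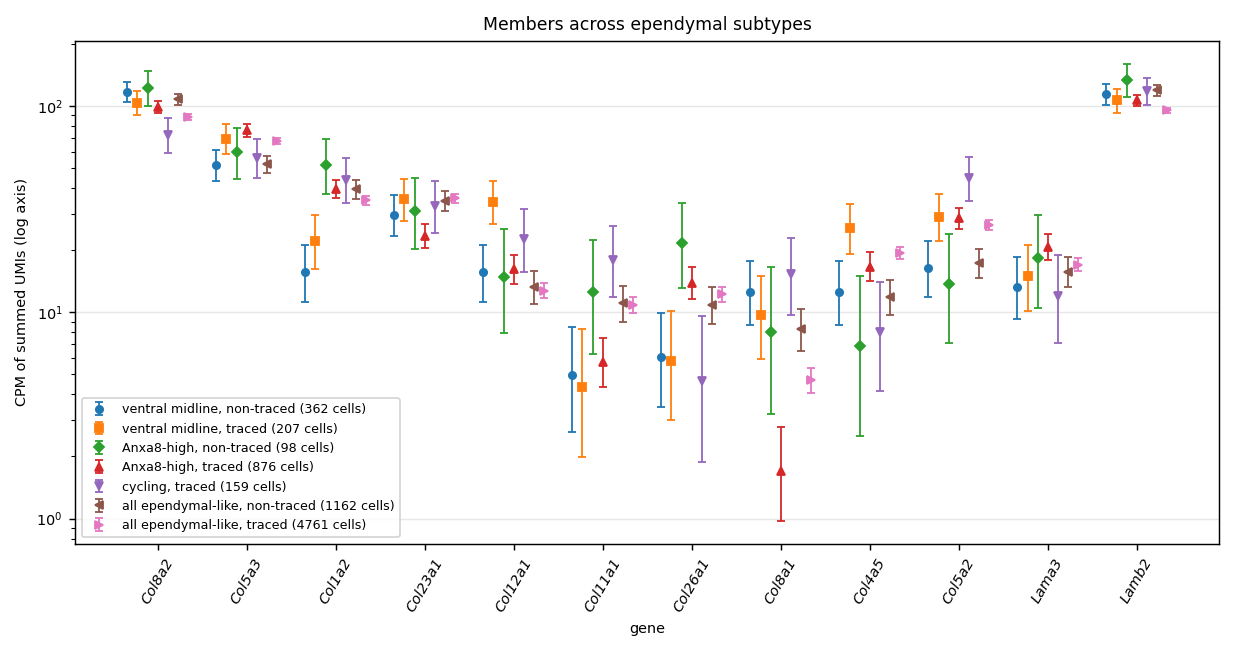
Levels of 12 genes in ependymal-like subtypes of both libraries, in CPM on a log axis with exact 95% Poisson intervals and all ependymal-like cells of each library as the last 2 symbols. Col8a2 and Lamb2 lie within 2-fold over the subtypes, and Col12a1 is highest in traced ventral midline cells. Col1a2 and Col11a1 are low in ventral midline cells, and Col11a1 also in traced Anxa8-high cells.

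Across the 11 ependymal sub-clusters of 50 or more traced cells, Col8a2 ranged from 71.3 to 104 CPM with a median of 91.1 CPM, Col5a3 from 48.0 to 84.3 CPM, Col23a1 from 18.8 to 45.0 CPM, Lama3 from 9.61 to 20.9 CPM, Lamb2 from 69.3 to 130.4 CPM and Col4a1 from 45.7 to 86.4 CPM. Sparc had a wider spread, from 209 to 615 CPM with a median of 306 CPM. Its highest values were in the 2 Anxa8-high sub-clusters and the ventral midline one. Col8a2, Col5a3, Col23a1 and Lama3 were thus detected in every one of these sub-clusters. The level of Col5a3 in pericyte-like cells and that of Lama3 in arterial-like cells also lay within these ranges.

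The 47 endothelial-like cells of the traced library resembled those of the non-traced library in the main network genes, with Col4a1 at 382 CPM (interval 327 to 443), Lama4 at 66.9 CPM (interval 45.2 to 95.6) and Sparc at 2198 CPM (interval 2063 to 2339.6). Of 16 members compared, 2 were at least 2-fold higher and 1 lower, against 4.37% and 3.21% of all genes. When cells were clustered after integration, 6 were higher and 1 lower, with no share of all genes given for that clustering. Col18a1 was at 62.5 CPM (interval 41.5 to 90.3) and Col5a2 at 31.2 CPM (interval 17.1 to 52.4) against 20.0 and 4.56 CPM, and Nid1 at 13.4 CPM (interval 4.91 to 29.1) against 27.8 CPM. Of these 47 cells 21 were arterial-like, against 4347 of 20380, so the segment makeup moved with the Col18a1 and Col5a2 values, and its part in them was not tested.

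The remaining 19 members, Col2a1, Col6a1, Col6a3, Col6a4, Col6a5, Col7a1, Col9a1, Col9a2, Col9a3, Col11a2, Col13a1, Col16a1, Col17a1, Col19a1, Col20a1, Col22a1, Col24a1, Col25a1 and Col28a1, reached between 0.151 and 8.01 CPM in their highest named class or subtype of 50 or more cells. Col6a5 was the highest of them, at 8.01 CPM in Anxa8-high non-traced cells, with 3.71 CPM (interval 3.17 to 4.31) in all traced ependymal-like cells and no UMI in mural-like cells. Col6a4, listed in the traced table alone, had 10 UMIs there. Of the 59 members, 14 reached 10 CPM in endothelial-like, 26 in pericyte-like, 22 in smooth muscle-like, 17 in non-traced ependymal-like and 18 in traced ependymal-like cells. No share of all genes at that level is given, so these counts cannot be set beside one. Depth also differed, with 177693926 UMIs in endothelial-like and 747258 in pericyte-like cells.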

How the data were processed

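Live CD45- CD133+ spinal cord cells were profiled by droplet single-cell RNA-seq of transcript 3′ ends, with 1 library per group and no replicate. The deposited values are raw UMI counts per gene and cell: per the submitters' notes and the study's methods, the authors aligned reads with STAR 2.5.1b in Cell Ranger 3.0.2 to mm10 with the tdTomato-WPRE sequence added, and counted UMIs. Their further filtering and integration in Seurat (version 3, under R 3.6.0) came after these counts and is not contained in them. Cell Ranger leaves out reads that match more than 1 gene, which lowers genes with near-identical copies. No cell column was left unused.

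All cells were kept and clustered together without integration (scanpy 1.11.5, 2000 features, 20 components, 15 neighbours, resolution 0.8), leaving out the 59 genes and the reporter. Clusters were named "-like" from marker lists; those with 2 cell types' markers were set aside as mixed droplets. Mural-like cells had under 25% of the median endothelial-marker load. Segments needed 3 markers at least 1.5-fold up. UMIs were summed per class and scaled to CPM, with exact 95% Poisson, conditional binomial (ratios) and Clopper-Pearson (shares, cells thinned to 1000 UMIs) intervals in scipy 1.17.1, which cover counting error only. A gene counted as past 2-fold when log2((CPM + 1)/(CPM + 1)) reached 1 in size and CPM was at least 10 in either class. A class at 0 was set to 3 counts for bounds. Scrublet marked 2170 cells (8.54%) of the non-traced library and 0 of the traced one, where it did not work. Marked cells were kept and left out in an alternative. The calling code was tested on simulated counts. Coordinates were from GENCODE vM21 on GRCm38, in which all 59 genes matched, and promoter sequences from RefSeq (GRCm38.p6).

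The genes, lists and comparisons were chosen with earlier results of these data known. Type IV, multiplexin and laminin chains, nidogens, Hspg2, Agrn and Sparc were named whatever their values, other collagens at 10 CPM or more in a class of at least 50 cells, and pathway genes as the 4 largest differences in each direction. Some genes that these rules name are not reported here. Sub-cluster values, Col9a1, Col22a1, Col6a5, and the marker genes given beside results were chosen after values were seen. Alternatives were integration in Seurat 5.3.0, clustering settings, cell filters, pseudocount and CPM filter, and 2 added after seeing the data.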

Additional observations from a re-analysis of the deposited data

How the results depend on the processing

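No paired analysis was possible because each group is 1 library. Of 783 values of single genes under the alternatives, 711 stayed within the counting interval of the reported value, 71 moved beyond it and 1 changed direction: Col1a1 in smooth muscle-like against pericyte-like cells had a log2 difference of -2.61 when cells were clustered after Seurat integration, and the cause was not tested. Leaving out Scrublet doublets, or (added after seeing the data) barcodes present in both libraries, kept all 13 counts of members past 2-fold within 1.5 times, as did using the 29 mural-like cells with no endothelial-marker UMI for the mural count (16, of which 14 higher and 2 lower). Of the 17 gene values recomputed in those 29 cells, however, 6 stayed within the reported interval and 11 moved beyond it, with log2 differences of 4.40 for Col5a3, 5.37 for Col3a1, 2.83 for Col4a3 and 1.37 for Col18a1 becoming 2.70, 3.82, 1.75 and 0.27, and 3.22 for Col4a4 becoming 4.92.

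The reported counts, both directions together, were 17 for mural-like, 20 for ependymal-like and 3 for traced endothelial-like cells against endothelial-like cells, 19 for smooth muscle-like against pericyte-like cells, 5, 1 and 0 for arterial-like, venous-like and interferon-responding against capillary-like cells, 0 for traced against non-traced ependymal-like cells, and against other ependymal-like cells 2 and 3 for ventral midline (non-traced, traced), 1 and 0 for Anxa8-high (non-traced, traced) and 3 for traced cycling cells. With no CPM filter, where more genes are compared, they were 30 (mural), 31 (ependymal), 6 (traced endothelial), 32 (smooth muscle), 3 (venous), 1 (interferon), 4 (traced ependymal), 4 and 6 (ventral midline), 10 and 2 (Anxa8-high) and 8 (cycling). With a filter of 50 CPM, where fewer are compared, they were 7 (mural), 8 (ependymal), 1 (traced endothelial), 12 (smooth muscle), 1 (arterial), 0 (venous), 0 and 0 (ventral midline), 0 (Anxa8-high, non-traced) and 0 (cycling). Under Seurat integration the venous count was 0, the traced endothelial count 7 and the traced Anxa8-high count 1, and the cycling comparison could not be formed. At the raised clustering resolution the venous count was 0, the traced ependymal count 2, the non-traced ventral midline count 4 and the traced Anxa8-high count 1. With the 59 genes kept as features the venous count was 0, the traced ventral midline count 5 and the non-traced Anxa8-high count 0. The non-traced ventral midline count was 4 without cells over 10% mitochondrial UMIs, 4 with a pseudocount of 0.1 CPM, and 4 (added after seeing the data) without the ependymal sub-cluster led by endothelial genes. The traced ventral midline count was 5 with the mean over cells and 5 with the pseudocount of 0.1 CPM, which gave 1 for traced Anxa8-high cells. The cause of these shifts was not tested. No share of all genes is given for the alternatives, so their counts cannot be set beside one. In all, 14 members had a UMI in at least 10% of the cells of a class after thinning and 33 without it.

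With 93 smooth muscle-like, 179 pericyte-like and 47 traced endothelial-like cells, a gene under 3.78 CPM in smooth muscle-like, 4.01 CPM in pericyte-like or 6.69 CPM in traced endothelial-like cells cannot be told from 0 at 3 counts. The planned comparison of fibroblast-like with mural-like cells was not run because 34 fibroblast-like cells were under the minimum of 50. The 47 traced endothelial-like cells were also under it and were compared under a lower minimum set for that class alone.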

Other observations

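The non-traced library also held 34 fibroblast-like cells, too few for a comparison, which had 39 of the 59 genes at 10 CPM or more. A single UMI is 2.48 CPM there, and no share of all genes at that level is given. Type I and III collagen chains were high together, Col1a1 at 1814 CPM (interval 1685 to 1950.0), Col1a2 at 1987 CPM (interval 1852 to 2129.6) and Col3a1 at 1363 CPM (interval 1251 to 1482). Type VI chains were also found, Col6a1 at 295 CPM (interval 244 to 353), Col6a2 at 186 CPM (interval 146 to 233) and Col6a3 at 79.3 CPM (interval 54.2 to 112), and Lama1, at 4.76 CPM in venous-like cells, was at 34.7 CPM (interval 18.96 to 58.2). Lama2 stood at 419 CPM (interval 358 to 487), Lamb1 at 198 CPM (interval 157 to 247), Nid1 at 503 CPM (interval 436 to 577) and Sparc at 3627 CPM (interval 3444 to 3818). Endothelial markers in these cells summed to 15.3% of their endothelial-like level. These genes were picked after their values were seen.

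The 39 astrocyte-like cells had 15 members at 10 CPM or more, among them Sparc at 1719 CPM (interval 1575 to 1872), Lamb2 at 58.8 CPM (interval 34.9 to 92.96), Lama2 at 22.9 CPM (interval 9.2 to 47.1) and Agrn at 45.7 CPM (interval 25.01 to 76.8). Col4a1 had 4 UMIs and Col4a2 2 there. A single UMI is 3.27 CPM in these cells, and again no share of all genes at 10 CPM is given.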
